A study of Mus musculus with 8 samples.

Results

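The genes described are 8 core genes of the Hedgehog pathway, namely the ligands Shh and Ihh, the receptor Ptch1, the signal transducer Smo, the ligand-binding inhibitor Hhip and the transcription factors Gli1, Gli2 and Gli3. They were found on the array through RefSeq accessions, which gave 12 probes of 41174 and 8 genes of 17305 named ones. All 12 probes passed the filter on dim signals, which required detection over local background in either channel on 4 or more arrays and left 39520 probes. The genes were selected on their scanner log2 ratios between mutant and wild type in these same arrays, so their values are given as a description and without a test.

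Hedgehog ligands are secreted proteins. In their absence Ptch1 holds Smo inactive, and Gli3 in particular is processed to a repressor. When a ligand binds Ptch1, Smo is released, Gli2 and Gli3 act as activators, and Gli1, Ptch1 and Hhip are themselves transcribed, so that the RNA of these last 3 genes is the usual readout of the pathway. In the developing urinary tract Shh is made by epithelium of the ureter and the distal collecting ducts, and the cells that respond lie in the mesenchyme around it. Ihh is known in the kidney from later tubules.

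The RNA came from whole kidneys of mouse embryos at E13.5 on a mixed CD1 and C57BL/6 background. The 2 groups were wild type kidneys and kidneys labelled UB HDAC1,2-/-, in which the histone deacetylase genes Hdac1 and Hdac2 are deleted from the ureteric bud (UB), the epithelial tree of the collecting system. Each of 4 biological replicates paired 1 mutant with 1 wild type RNA on 2 arrays with Cy3 and Cy5 exchanged, 8 arrays in all, by the sample labels. The series' design text speaks of swapped dyes for 2 of 4 arrays, and by the sample labels the mutant was in Cy5 on 2 of the 4 arrays of each slide. The labels give neither the Cre driver nor how many embryos were pooled in an RNA, and the surrounding mesenchyme keeps both genes by the name of the genotype. In a whole kidney, fewer cells of a type and less RNA per cell cannot be told apart.

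Every ratio below is a log2 value, with the RNA labelled mutant above the line and its wild type partner below it. Hdac2, deleted in the bud by the labels, stood at 0.60, 0.60 and 0.74 in replicates 1 to 3 and at -0.61 in replicate 4. A steady loss of Hdac2 was thus not seen, and no value for Hdac1 is given here. Whether the Hdac2 probe lies in the deleted part is not given in the sources used here. The authors' deposited table states no direction, and 271 of its 273 single-spot entries have the opposite sign to the scanner ratio turned by the labels. Directions below therefore rest on the labels of the arrays, and with the sign turned every higher value would be a lower one of the same size. By array, 82.1% to 95.9% of spots were detected over background in RNA labelled mutant, and 79.2% to 97.1% in its partner, and no spot was saturated. Replicate 2 stood apart. In 2490 probes (6.3%) its ratio was below -1 while the other 3 replicates lay within 0.5 of 0, against 17, 83 and 103 probes for replicates 1, 3 and 4. In 588 probes (1.49%) its ratio alone was above 1, against 10, 6 and 7 for the others.

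Gli factors bind DNA at the sequence GACCACCCA. The 250 bases upstream of the start are shown for Hhip and Ptch1, which like Gli1 are direct Gli targets. They were chosen because the ratio of the RefSeq probe of Ptch1 differed from those of Hhip. Another probe named Ptch1 lay nearer to Hhip, as described below. The sequences are those of the RefSeq table for GRCm38.p6, which held 6 of the 8 genes, and are written 5′ to 3′ on the strand of the gene. Hhip lies at chr8:80058009-80058258 on the minus strand and Ptch1 at chr13:63565736-63565985 on the minus strand. Capitals mark matches on either strand to CCACCC, the 6 letters inside the Gli sequence.
Hhip: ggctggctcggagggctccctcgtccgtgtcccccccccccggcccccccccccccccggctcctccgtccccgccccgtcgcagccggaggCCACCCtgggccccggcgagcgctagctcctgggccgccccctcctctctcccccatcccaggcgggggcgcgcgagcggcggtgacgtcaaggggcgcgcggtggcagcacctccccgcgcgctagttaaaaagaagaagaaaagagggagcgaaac
Ptch1: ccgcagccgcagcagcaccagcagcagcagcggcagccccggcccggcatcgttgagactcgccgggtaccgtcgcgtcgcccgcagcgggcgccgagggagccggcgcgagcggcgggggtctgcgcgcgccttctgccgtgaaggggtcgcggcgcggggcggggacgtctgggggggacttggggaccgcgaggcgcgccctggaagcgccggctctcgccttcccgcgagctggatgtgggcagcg
The window of Hhip held 1 match and that of Ptch1 held 0. Of the 6 promoters, 5 held CCACCC (Ihh, Gli2, Smo, Hhip and Gli3), against 28.1% of all 32851 promoters of that length. The letters G and C made up 67.2% to 78.4% of the 6 windows. The share over all promoters was not matched for this, so enrichment was not tested. The full GACCACCCA was found in 0 of the 6, against 0.225% of all promoters, with both strands searched. A match or its absence describes the letters of this window only.

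Shh, the ligand of the bud and ureter epithelium, had the highest ratio of the 8 genes in the direction of the labels, and would have the lowest with the sign turned. The ratio was 1.39, 1.88, 1.63 and 1.20 in replicates 1 to 4, which is 1.53 ± 0.29 (SD, n = 4) or 2.88-fold. It was above 0 on 8 of 8 arrays, from 1.11 to 2.38 with a median of 1.41, and on average 1.58 with the mutant in Cy5 and 1.47 with the mutant in Cy3. The probe was printed on 10 spots of each array, and all 75 spot values left after outlying spots were removed lay above 0, between 0.90 and 3.21. Replicates 1 and 2 lay on slide 1, with a mean of 1.64, and replicates 3 and 4 on slide 2, with a mean of 1.42. Spots of 1 array share their RNA and are not replicates. Among the 39520 probes tested, Shh ranked 6 by mean ratio, with 0.0127% of probes higher. With the sign turned this is the same rank from the lowest.

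The level of Shh in each RNA, as log2 processed signal relative to the median probe of its channel, was -1.96, -2.29, -1.80 and -1.86 in the 4 RNAs labelled mutant. In the RNAs labelled wild type it was -3.35, -4.18, -3.43 and -3.06. The groups did not overlap, which was also true, in the same direction, of 0.764% of all probes, and in the opposite direction of 0.681%. The lowest value of all was the wild type RNA of replicate 2, and on the array that carried this RNA in Cy3 only 10% of the wild type spots were well above background.

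The Shh probe was dim, and the size of its ratio differed between processing methods. Before any correction, its brightness ran from 128 to 226.25 scanner units in the RNA labelled mutant (median 173.5) and from 64.25 to 104.75 in the RNA labelled wild type (median 91.0). Negative control spots had medians of 36.0 to 45.0 in both. The raw signal of the labelled mutant was the higher one on all 8 arrays. With limma's normexp correction at an offset of 50 and loess in place of the scanner's ratio, the mean was 0.62 ± 0.14 (1.54-fold). The direction was the same and the ratio smaller. On the replicate 3 array with the mutant in Cy3 it fell from 1.79 to 0.08, while the other arrays lay between 0.56 and 0.79. Background, dye normalization and input signal changed together in this setting, and the part of each was not tested.

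**Figure D1:**
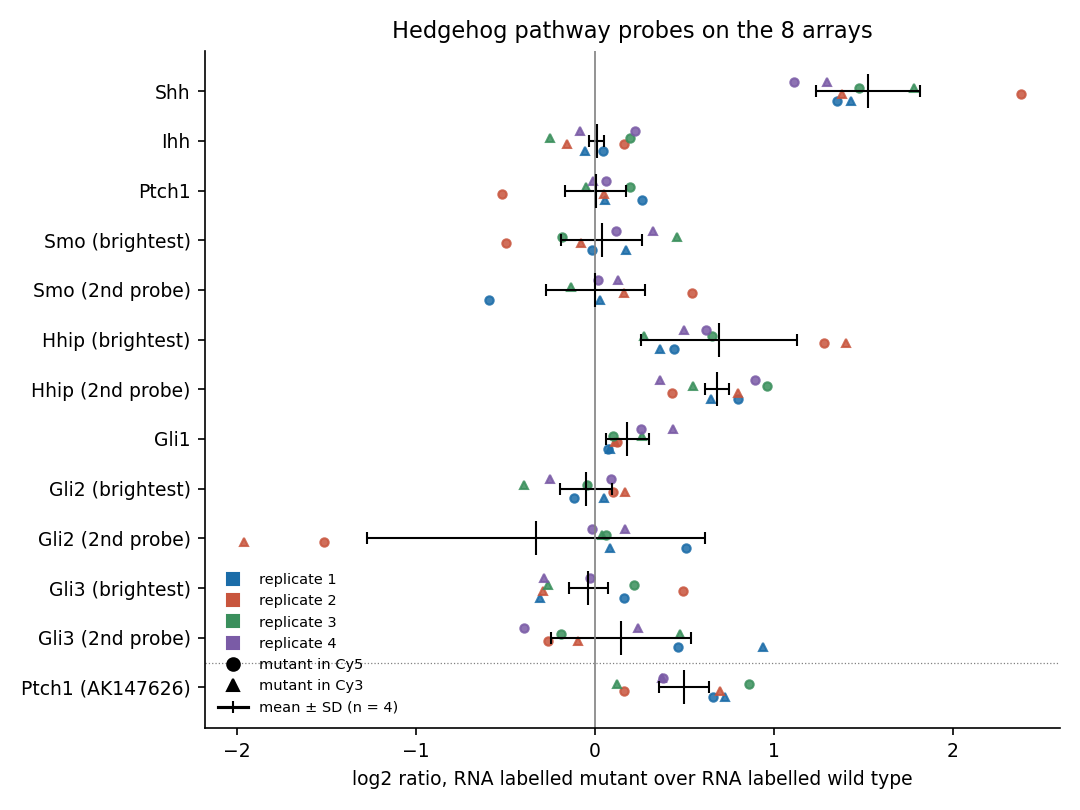
Log2 ratio, labelled mutant over labelled wild type (horizontal axis) for the 12 probes of the 8 genes and, under the dotted line, the probe that the authors' table names Ptch1. Points are single arrays, coloured by replicate and shaped by dye orientation, and bars are the mean ± SD over 4 replicates. Shh lies right of 1 on every array, both Hhip probes lie right of 0 on every array, and the 2 arrays of replicate 2 lie far left for the 2nd Gli2 probe.

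**Figure D2:**
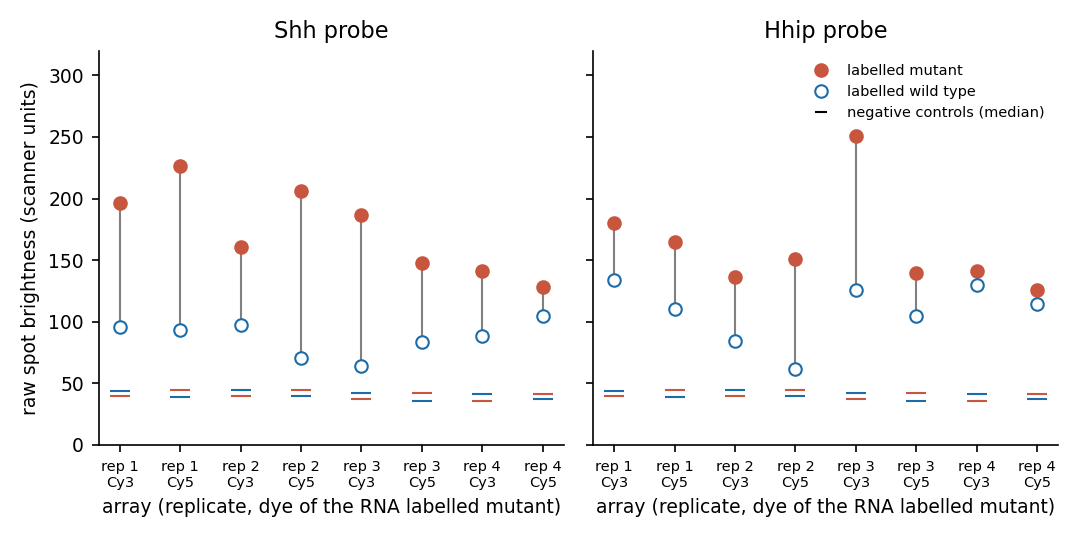
Uncorrected brightness of the Shh probe (median of its 10 spots) and of the brighter Hhip probe in scanner units (vertical axis) on each of the 8 arrays, for the RNA labelled mutant (filled) and labelled wild type (open). Horizontal ticks are the medians of negative control spots, at 36.0 to 45.0. The filled point is the higher one on every array for both genes, and the distance between the points is smallest in replicate 4.

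Ihh, the other ligand measured through these probes, had a ratio near 0. Its replicates were 0.00, 0.00, -0.03 and 0.07, or 0.01 ± 0.04 (SD, n = 4), and the levels in the 2 groups overlapped. Behind the small SD lay a difference between the dyes, with a mean of 0.16 for the mutant in Cy5 and -0.14 for the mutant in Cy3. Such an opposite sign in the 2 orientations was found in 42.2% of all probes. Dhh, the third ligand of the family and a member of the pathway list described below, stood at 0.09 ± 0.13.

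Among the 3 transcripts that report the pathway's activity, Hhip had the highest ratio among the RefSeq probes. Hhip binds Hedgehog ligands at the cell surface and limits their range. Its brighter probe gave 0.40, 1.34, 0.47 and 0.56, with a mean of 0.69 ± 0.44 (SD, n = 4) or 1.62-fold, and was above 0 on 8 of 8 arrays. Replicate 2 was the high one, where the wild type RNA was not well above background on either array. Without replicate 2 the mean was 0.48 (1.39-fold), and the means of slides 1 and 2 were 0.87 and 0.51. The levels overlapped between groups, from -2.66 to -1.76 in the RNAs labelled mutant and from -4.02 to -2.22 in those labelled wild type.

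A separate Hhip probe gave almost the same mean with less spread, at 0.72, 0.62, 0.76 and 0.63, or 0.68 ± 0.07. It too was above 0 on 8 of 8 arrays, as 2.24% of all probes were. It was dimmer, and well above background on only 4 arrays in the RNA labelled mutant and 3 in the RNA labelled wild type. It thus met the filter of 4 arrays only through the RNA labelled mutant. In replicates 1 and 2 neither RNA was well above background on any array, so its small spread rests partly on undetected spots. With normexp at an offset of 50 the means of the 2 probes were 0.31 ± 0.19 and 0.23 ± 0.06.

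Ptch1, the Hedgehog receptor, did not show a ratio of that kind in its RefSeq probe. The replicates were 0.16, -0.24, 0.07 and 0.02, with a mean of 0.01 ± 0.17 (SD, n = 4), and 52 of 77 spot values were above 0. The lowest array, at -0.52, was that of replicate 2 with the mutant in Cy5, where the 10 spots spread from -1.29 to 0.76. The levels overlapped, from -1.03 to -0.42 in the RNAs labelled mutant and from -0.86 to -0.58 in those labelled wild type.

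The authors' deposited table attaches the name PTCH1 to another probe, of the cDNA AK147626. It has no RefSeq accession on the array and was looked up after its values were seen. The AK147626 probe stood at 0.70, 0.43, 0.49 and 0.38, or 0.50 ± 0.14 (SD, n = 4), and was above 0 on 8 of 8 arrays. Its levels in the 2 groups overlapped. With normexp at an offset of 50 it stood at 0.31, as the brighter Hhip probe did. The probes that carry the name of this receptor thus disagreed, and which transcript each measures was not tested. The authors' deposited table also lists SHH in 10 entries from -1.62 to -1.25 and HHIP at -0.68, with its sign opposite to the labels' as described above.

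Gli1, which is both an activator and a target, was slightly above 0. Its replicates were 0.08, 0.12, 0.18 and 0.35, with a mean of 0.18 ± 0.12 (SD, n = 4) or 1.13-fold. It was above 0 on 8 of 8 arrays, from 0.07 to 0.44, and in 69 of 78 spot values. The levels overlapped, at -0.84 ± 0.11 in the RNAs labelled mutant and -1.03 ± 0.18 in those labelled wild type. The mean was above 0 under every alternative processing, from 0.05 to 0.26, but with normexp and median centring only 2 of 4 replicates were.

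The ratio of the ligand exceeded the mean ratio of its targets within each replicate. Shh minus the mean of Ptch1, Hhip and Gli1 was 1.18, 1.47, 1.39 and 0.89, or 1.23 ± 0.26 (SD, n = 4). The mean of the 3 targets was 0.21, 0.41, 0.24 and 0.31, or 0.29 on average. These values use the RefSeq probe of Ptch1. With the AK147626 probe in its place, tried after the data were seen, the mean of the targets was 0.46 and the gap 1.07 ± 0.23. With normexp at an offset of 50 the gap was 0.48 with the RefSeq probe and 0.38 with the AK147626 probe. The values compare changes, not levels, since brightness of different probes is on no common scale.

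Smo, the transducer that Ptch1 restrains, stood at 0.08, -0.29, 0.14 and 0.22, or 0.04 ± 0.23 (SD, n = 4), and its other probe at 0.00 ± 0.27, with the spot left out as outlying on 1 of 8 arrays, so that its replicate 3 rests on a single array. Both probes scattered around 0. With normexp and median centring in place of loess the bright probe of Smo moved to 0.42, a setting that leaves trends with brightness uncorrected. Gli3, the main repressor, stood at -0.07, 0.10, -0.02 and -0.16, or -0.04 ± 0.11, with means of 0.21 and -0.29 in the 2 dye orientations. Its dimmer probe was at 0.15 ± 0.39, from -0.18 to 0.70 by replicate.

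Gli2, the main activator, stood at -0.03, 0.13, -0.22 and -0.08 in its brighter probe, or -0.05 ± 0.15 (SD, n = 4). Its other probe gave 0.30, -1.74, 0.05 and 0.08, so that its mean of -0.33 ± 0.95 came from replicate 2. In that replicate the level was 0.80 in the RNA labelled wild type and -0.93 in the RNA labelled mutant, while the other 3 wild type RNAs lay between -1.58 and -1.34. Replicate 2 thus differed through its wild type RNA, and on both dye orientations. The same kind of departure in replicate 2 was seen in 6.3% of all probes.

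By gene, with the brightest probe for each, 6 of the 8 means were above 0, while 53.9% of all tested probes were. That count was 4 with scanner ratios centred on the array median and 7 with normexp and median centring. Shh, Hhip and Gli1, 3 of the 8, were above 0 in 4 of 4 replicates (10.7% of probes), and 0 of the 8 were below 0 in all of them (5.73%). Only Shh and Hhip stood at 1.4-fold or more, a size that 0.979% of probes reached upward and 2.35% downward. The AK147626 probe, named Ptch1 in the authors' table and not counted here, stood at 1.41-fold. Ihh, Ptch1, Smo, Gli2 and Gli3 all had means within 0.05 of 0, with SDs of 0.04 to 0.23 beside a median SD of 0.26 over all probes.

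Over all probes, limma's test with Benjamini-Hochberg adjustment called 7 of 39520 at an adjusted p under 0.05 (0.0177%), 6 higher (0.0152%) and 1 lower (0.00253%), and 2374 (6.01%) had an unadjusted p under 0.05. With the 8 arrays as separate ratios and the replicate as a block it called 133. In the list of other Hedgehog pathway genes, 28 of 33 genes were on the array and tested, and 0 were called, while 0 were higher and 1, Boc, was lower at an unadjusted p under 0.05 (3.15% and 2.86% of all probes). Of the 28, 11 were above 0 and 17 below, with a median of -0.08 beside 0.02 for all probes.

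None of these other pathway genes moved by an amount that passed the test. The 4 with the largest means were Efcab7, which helps to anchor a Smo-binding complex at the cilium, at 0.34 ± 0.54, Hhat, the acyltransferase that lipid-modifies the ligands, at -0.32 ± 0.73, the co-receptor Boc at -0.31 ± 0.25, and Spopl, a relative of the ubiquitin ligase adaptor Spop, at 0.30 ± 0.37 (SD, n = 4; each adjusted p = 0.758, limma). Replicate 2 set the means of Efcab7, where it was 1.08, and of Hhat, where it was -1.39. Boc was the steadier one, below 0 on 8 of 8 arrays at -0.60, -0.03, -0.44 and -0.18. The other co-receptors, Gas1 and Cdon, stood at -0.25 ± 0.36 and -0.06 ± 0.14, and Sufu, which holds Gli proteins inactive, at 0.06 ± 0.10. Another probe of Hhat stood at 0.06 and another of Cdon at 0.11, so the probes of these genes disagreed in sign.

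Genes that respond to Hedgehog in various tissues likewise held no call. Of 22 genes, 20 were tested and 0 were called by limma, with 0 higher and 1 lower at an unadjusted p under 0.05, 9 above 0 and 11 below, and a median of -0.02. The largest means were those of the apoptosis inhibitor Bcl2 at -0.29 ± 0.30, the zinc-finger factor Sall1 at -0.29 ± 0.74, the growth regulator Mycn at 0.28 ± 0.43 and the secreted Wnt antagonist Sfrp1 at -0.28 ± 0.11 (SD, n = 4; each adjusted p = 0.758). Sfrp1 was the evenest of them, at -0.26, -0.14, -0.35 and -0.37. Foxf1, a mesenchymal target in gut and lung, stood at 0.08 ± 0.08.

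The mesenchyme around the ureter, where Shh acts on smooth muscle precursors, was read through 12 genes, of which 0 were called by limma and 0 had an unadjusted p under 0.05. The median was -0.02, with 6 above 0 and 6 below. Myocd, the regulator of the smooth muscle programme, stood at -0.27 ± 0.91, with -1.62 in replicate 2 alone, the contractile genes Actg2 and Tagln at -0.26 ± 0.20 and -0.24 ± 0.43, and Bmp4, a signal of the ureteric mesenchyme, at 0.16 ± 0.30 (adjusted p = 0.768 for Myocd and 0.758 for the others). Another probe of Tagln stood at 0.26. Cilia, which the mammalian pathway needs, were read through 20 genes with a median of 0.01 and 0 called. Foxj1, the regulator of motile cilia, had the largest mean there, at -0.54 ± 0.37 (adjusted p = 0.705), with replicate 2 at 0.00, and was the 1 cilium gene with an unadjusted p under 0.05. The ciliary GTPase Arl13b stood at -0.22 ± 0.14, the transport protein Ift57 at -0.21 ± 0.19 and the dynein chain Dync2h1 at -0.15 ± 0.19. The probes of these genes disagreed in sign, with other probes as high as 0.07 for Arl13b, 0.07 for Ift57 and 0.04 for Dync2h1.

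**Figure D3:**
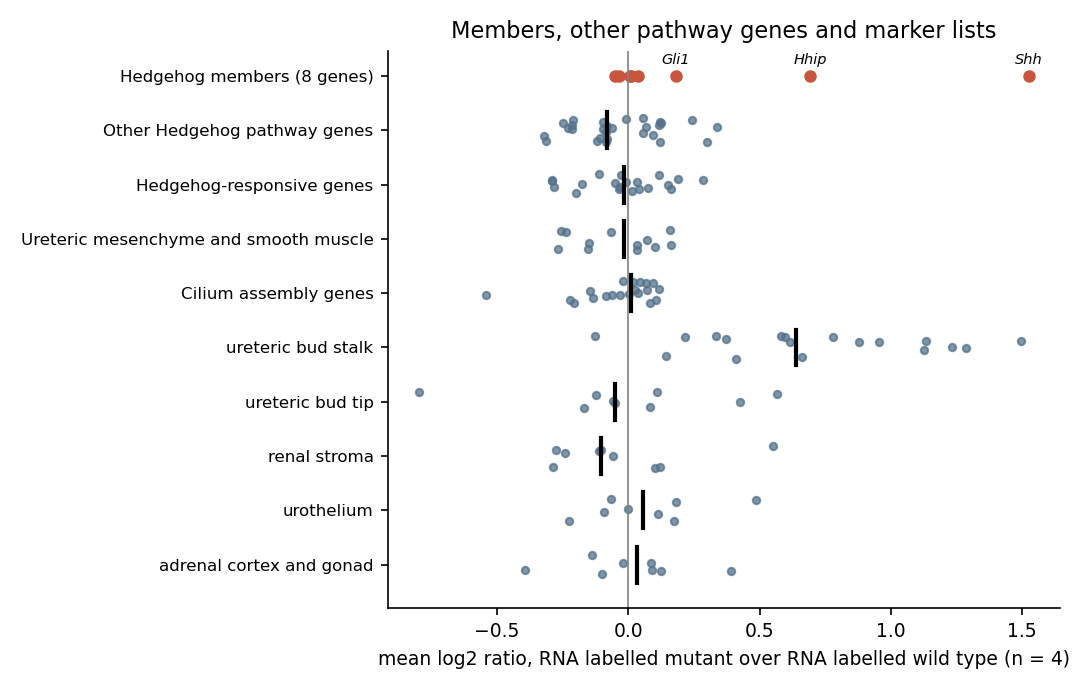
Mean log2 ratio over 4 replicates (horizontal axis) of each gene, represented by its brightest probe, for the 8 Hedgehog genes (red), the 4 lists of pathway, responsive, mesenchymal and cilium genes and 5 lists of cell type markers (blue). Black bars are list medians. The medians of the pathway, responsive, mesenchymal and cilium lists lie between -0.08 and 0.01, and that of ureteric bud stalk genes at 0.64.

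Genes that mark the stalk and trunk of the bud were mostly above 0 beside Shh. Of 18 genes of the ureteric bud stalk and trunk, 17 were above 0, with a median of 0.64, and 15 were higher at an unadjusted p under 0.05 (3.15% of all probes were). The list was chosen with earlier results of these data known, so its counts are a description and no test of enrichment. Between 17 and 18 of them were above 0 under each of the 4 other scalings. Their summed processed signal was averaged over the 2 arrays of each RNA and not centred by array. It ran from 75920 to 135500 in the 4 RNAs labelled mutant and from 51510 to 72880 in those labelled wild type, without overlap. Among single probes, on centred levels, 0.764% had all 4 RNAs labelled mutant above the 4 labelled wild type. The sums of the bud tip list overlapped, at 10880 to 16300 and 11460 to 16630. The kidney cadherin Cdh16 was the 1 called gene, at 1.496 ± 0.164 (SD, n = 4; adjusted p = 0.0422, limma), and Elf5, Krt7 and Krt18 stood at 1.29, 1.23 and 1.14. The call of Cdh16 was lost without replicate 1, 3 or 4 (adjusted p = 0.201, 0.714 and 0.644) and held without replicate 2 (adjusted p = 0.0266, limma), while its mean ratio stayed between 1.45 and 1.56. The part of these marker differences in the Shh ratio was not tested.

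Compared with that list, the ratio of Shh was above all 18 genes on the scanner's scale. With normexp at an offset of 50 it was 0.62, beside a list median of 0.59, and Cdh16 was at 1.33. Bud tip markers had a median of -0.05 (9 genes, 4 above 0 and 5 below). Of these, 2 were higher and 1 was lower at an unadjusted p under 0.05 (3.15% and 2.86% of all probes). They were Wnt11 at 0.42 ± 0.20 and Slco4c1 at 0.57 ± 0.58, and Adamts18 at -0.80 ± 0.07 (adjusted p = 0.639, 0.758 and 0.128, limma). The medians of renal stroma and of urothelium, which makes Shh in the lower tract, were -0.10 (9 genes) and 0.06 (8). At an unadjusted p under 0.05, 1 stroma gene was higher and 2 were lower, and 1 urothelium gene was higher and 0 were lower. For tissues outside the kidney, the adrenal and gonad list had a median of 0.03 (8 genes, 1 higher and 0 lower at an unadjusted p under 0.05), and the list of gut, floor plate and notochord genes, tissues rich in Shh, 0.08 (5 genes tested). Of the latter, 1 was higher and 0 were lower at an unadjusted p under 0.05. That gene, Foxa1, stood at 0.88 ± 0.43 (adjusted p = 0.430, limma) and was above 0 on 8 of 8 arrays. With normexp at an offset of 50 Foxa1 stood at 0.31. Foxa2 stood at 0.08 ± 0.09 on the scanner's scale. Medians were -0.05 for nephron progenitor (9 genes) and 0.05 for endothelium (6). At an unadjusted p under 0.05, 1 progenitor gene was higher and 1 lower, and 1 endothelial gene was higher and 0 lower. The neuron and glia list had a median of -0.21, with 7 of 7 genes below 0 and 2 lower at an unadjusted p under 0.05. The macrophage list had a median of -0.31, with 6 of 7 genes below 0 and 3 lower and 1 higher at an unadjusted p under 0.05 (2.86% and 3.15% of all probes), and 0 genes of either list were called by limma. The part of these lists in the Shh ratio was not tested.

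The genes whose ratio followed that of Shh most closely over the 8 arrays, by root mean square difference among 17045 named genes, were Rgn at 0.29, Gsta3 at 0.42 and Cabcoco1 at 0.44 log2 units. Their mean ratios were 1.51 ± 0.24, 1.19 ± 0.26 and 1.26 ± 0.55 (SD, n = 4). Another probe of Gsta3 stood at 1.56 and was among those called over all probes (adjusted p = 0.0331, limma). The genes nearest to Ptch1 were 4930503B20Rik, Rpl10a and Wdr55, at 0.0883, 0.0896 and 0.0909, with mean ratios between -0.06 and 0.00.

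**Figure D4:**
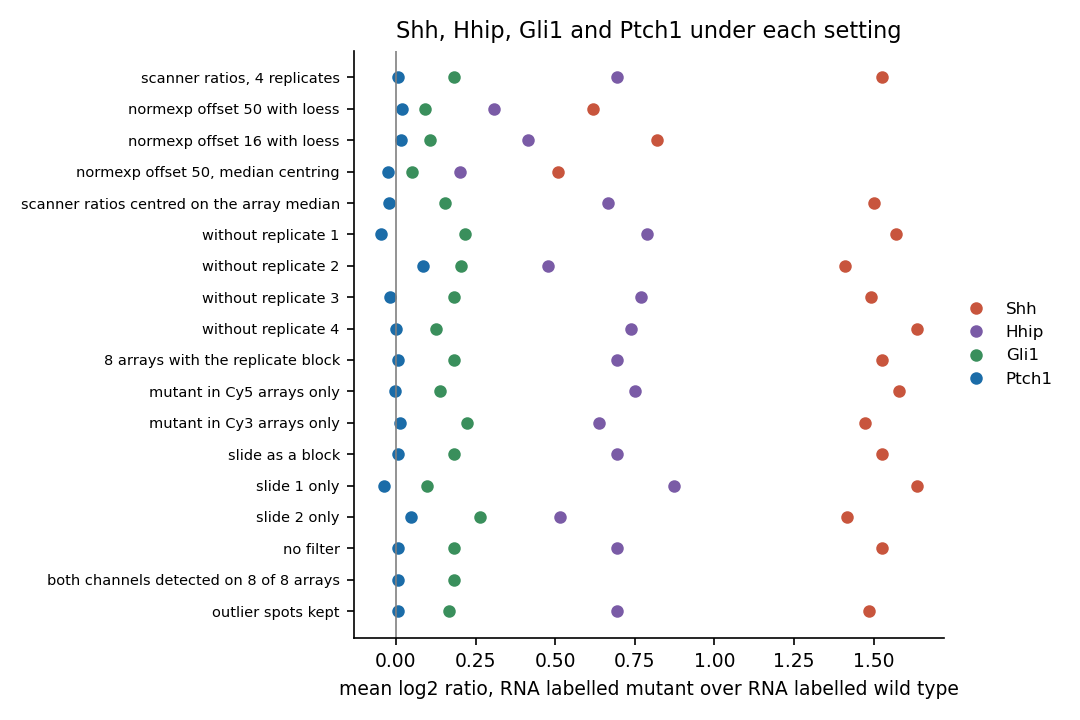
Mean log2 ratio (horizontal axis) of Shh, Hhip, Gli1 and Ptch1 under the scanner's ratios and under each alternative processing or left-out replicate other than the averaging of probes (rows). Shh ranged from 0.51 to 1.64, Hhip from 0.20 to 0.87, Gli1 from 0.05 to 0.26 and Ptch1 from -0.05 to 0.09. Shh and Hhip have no point in the row that requires detection in both channels on 8 of 8 arrays, since neither met it.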

How the data were processed

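Spots were extracted from 2-colour Agilent arrays with Feature Extraction 10.5.1.1, per the file headers. The deposited log10 ratio of each spot is Cy5 over Cy3 processed signal, which that software corrected for background and dye, per the file headers. The deposited intensity columns are median spot and local background brightness and the processed signals. The deposited flags (well above background, saturated, outlier) are 0 or 1. The authors' table holds log2 ratios of 496 selected entries, without a stated direction.

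Ratios were multiplied to the log2 scale, turned to labelled mutant over labelled wild type, and averaged over the spots of a probe (outlying spots, 0.465%, dropped) and over both dyes of a replicate. The probe brightest over all channels stood for its gene. Of 41174 probes, 25097 had a symbol in RefSeq (GRCm38.p6), and the array design cites another build, so no probe positions are given. Ratios were tested against 0 with lmFit and eBayes (limma 3.58.1, R 4.3.3), two-sided, with Benjamini-Hochberg adjustment over 39520 probes. In simulated data for this comparison, 45% of 200 probes changed 2-fold and 88% of those changed 4-fold were recovered, with 1 and 5 false calls. The simulated noise was drawn independently for each probe and replicate. It held no departure shared by many probes, such as that of replicate 2, so the rates may differ in the real data. Members, lists and the rule for named genes (all members, and from each list of pathway, responsive, mesenchymal and cilium genes the called ones, filled to 4 by size of the mean, with the 3 genes nearest to Shh and to Ptch1) were chosen with earlier results of these data known. The bud stalk genes named follow the same order. The bud tip genes named had an unadjusted p under 0.05. Other genes, such as Dhh, Gas1, Cdon, Sufu, Foxf1, Foxa1 and Foxa2, were named for their role after values were seen.

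Partners of a replicate share arrays. Their deviations from group means correlated at 0.573 to 0.781, so the ratio keeps the pairing. The numbers of a replicate are given by the labels. Alternatives were normexp at offsets 50 and 16 (on median signals, since the mean signals planned are not used here), centring, dyes, slides, filters, outliers, a replicate block, probe averaging, each replicate left out and, added after the data were seen, another Ptch1 probe. The labels call the replicates biological, and the number of replicate RNA pairs, 4, limits the precision.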

Additional observations from a re-analysis of the deposited data

Results flagged for a closer look

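Among 15 sets of 4 replicate values examined, 3 held a replicate whose distance from its nearest neighbour exceeded Dixon's 95% critical value, relative to the range. Chance gives that in about 1 of 20 sets. The brighter Hhip probe stood at 1.34 in replicate 2 against 0.40 to 0.56 in the others. The dimmer Gli2 probe stood at -1.74 in replicate 2 against 0.05 to 0.30. Hdac2 stood at -0.61 in replicate 4 against 0.60 to 0.74. Both Hedgehog values came from the replicate that stood apart over all probes, and its part in them was not tested.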

How the results depend on the processing

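The ratio of Shh was above 0 under all 17 alternatives that gave a value, and so was that of Hhip, while Gli1 was above 0 under all 18. Requiring detection in both channels on 8 of 8 arrays removed Shh and Hhip. The ratio of the RefSeq Ptch1 probe ran from -0.05 to 0.09. Shh minus its targets fell from 1.23 to 0.48 with normexp at offset 50, 0.64 at offset 16 and 0.43 with median centring, and was 1.15 to 1.35 with each replicate left out. With the AK147626 probe for Ptch1, added after the data were seen, it was 1.07. The list of other pathway genes and that of responsive genes had 0 calls under the 17 alternatives in which they were counted (all but the averaging of a gene's probes), 4 of which called 0 probes in all and so say nothing on these lists. The number of probes called, 7, became 1 with normexp at either offset, 17 with normexp and median centring, 1 and 36 with the mutant in Cy5 or Cy3 alone, 1 with slide as a block, 0 within slide 1 (762 at an unadjusted p under 0.05), 452 within slide 2, 2 without a filter and 13 with the strict filter. With the replicate block it was 133 (96 higher, 37 lower; consensus correlation 0.3), and the block changed no call in these lists. Leaving out each replicate gave 0 to 10 calls, with 0 without replicate 1, 3 or 4 (2588, 905 and 1959 probes at an unadjusted p under 0.05, limma) and 10 without replicate 2. The pathway median of -0.08 became -0.02 with normexp at offset 50, -0.0167 at offset 16, 0.12 with median centring, -0.11 with scanner ratios centred, -0.0243 with Cy5 alone, 0.0098 within slide 1, 0.0032 within slide 2, -0.0307 with probes averaged and -0.0843 to -0.0091 with replicates left out. The responsive median of -0.02 became 0.03 with normexp at either offset (0.0264 and 0.0319), 0.12 with median centring, -0.0602 with Cy3 alone and -0.0602 within slide 1. The cause of these shifts was not tested. The dim Shh and Hhip probes limit how exactly a fold can be given.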
